A study of Mus musculus with 8 samples.

Results

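The Mediator complex was followed through the transcripts of its 33 subunit genes, taken by symbol from the gene count table: 30 genes of the Med series, which include the paralogs Med12l and Med13l, and the kinase module genes Cdk8, Cdk19 and Ccnc. All 33 had a row among the 27179 rows of the table, and all 33 were among the 8878 genes that passed the filter on low counts. The genes are the known membership of the complex, but the complex was picked for description because Med31 had stood out in the comparison of genotypes in earlier work on these libraries. The values of Med31 in that comparison, its p values included, are therefore a description and no test of it.

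RNA was sequenced from CCR6+ group 3 innate lymphoid cells (ILC3s), lymphocytes resident in tissue and a source of interleukin 22, sorted from the large intestine of C57BL/6 mice at steady state. The 4 knockout mice (KO, replicates 5 to 8) carried floxed Zbtb46 alleles and a Cre recombinase transgene. The 4 mice labelled wild type (WT, replicates 1 to 4) carried the same floxed Zbtb46 alleles without Cre. Each library came from 1 mouse, and the sources used here give neither age nor sex. Cre itself was present in KO mice only.

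Mediator is a large protein assembly that joins transcription factors on enhancers to RNA polymerase II at promoters. Its head and middle modules contact the polymerase, MED14 forms the backbone that ties the modules together, and the tail binds most activators. A separable kinase module, built from CDK8 or CDK19 with cyclin C, MED12 and MED13 or their paralogs, docks on the core and regulates its contact with the polymerase. MED31 is a small and highly conserved subunit of the middle module that binds MED7, and in mice it is needed for cell proliferation in the embryo.

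Med31 (Entrez ID 67279) lies on the minus strand of chromosome 11, from base 72211724 through base 72215592 (RefSeq, GRCm38.p6, the assembly behind mm10). It is shown here because it was the member whose groups separated. The 250 bases before its annotated start, chr11:72215593-72215842 on the minus strand, are given below with the letters TGACGT in capitals, the core of binding sites of the CREB and ATF factors, which here ends 39 bases before the start. The other 3 lines give the 30 bases around each match to these letters, on either strand (the other strand reads ACGTCA, and Med21 holds both, overlapping), before the other members that hold one: Med20 (chr17:47611472-47611501, plus strand), Med21 (chr6:146642436-146642465, plus strand) and Med27 (chr2:29346764-29346793, plus strand).
Med31: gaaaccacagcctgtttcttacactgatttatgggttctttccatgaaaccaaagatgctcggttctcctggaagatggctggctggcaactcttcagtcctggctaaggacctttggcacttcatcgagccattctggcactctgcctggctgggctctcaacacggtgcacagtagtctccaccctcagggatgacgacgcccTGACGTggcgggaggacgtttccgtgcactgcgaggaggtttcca
Med20: gagccgagtcgaTGACGTtctagaaatgtc
Med21: atcccacccgccTGACGTCAgcaggcccgc
Med27: cctcctaggacaACGTCAtcacgaagcgcc

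Sequences were RefSeq's for GRCm38.p6, where 28 of the 33 members had an entry. TGACGT, read on both strands, stood in the 250 bases before the start of 4 of these 28 members (14.3%) and of 7.29% of 27025 genes. The letters CCGGAAG, the core of ETS factor sites, likewise stood before 6 of 28 members (21.4%) and 7.83% of all genes. These members were Med4, Med10, Med14, Med15, Med17 and Med19. Both sets of letters were chosen after the Med31 promoter had been seen, and a match is a description of letters only.

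Library totals were 26967170 to 33760743 counts in KO and 25328231 to 29175568 in WT libraries, so a count of 0 allows up to 0.0889 to 0.118 CPM (counts scaled to 1e+06 per library), taken as 3 counts of the total and covering counting error only. Zbtb46, the targeted gene, had 4.78, 0.527, 3.16 and 0.124 CPM in KO replicates 5 to 8, against 7.95, 48.3, 88.0 and 26.3 CPM in WT replicates 1 to 4. No KO library reached a WT library, and a two-sided permutation test, exact over all splits of 4 against 4, gave p = 0.0286, its smallest possible value. The adjusted p of Zbtb46 in edgeR's quasi-likelihood test over all genes was 0.885. The 10 ILC3 markers, Il23r, Il22 and Ccr6 among them, were present in all 8 libraries and summed to 22877 to 28380 CPM in KO and 24011 to 35656 CPM in WT libraries. Il22 made up most of these sums, at 13440 to 18771 CPM in KO and 14886 to 25266 CPM in WT libraries. Tcf7 was lower in every KO library, at 101 to 147 CPM in KO and 176 to 250 CPM in WT libraries. The groups of the other ILC3 markers overlapped. NK cell and ILC1 markers, of which 3 of 7 passed the filter on low counts, stood at 176 to 594 CPM in KO and 48.8 to 244 CPM in WT libraries. Ncr1 made up most of these sums except in WT replicate 1, where it was at 0.0388 CPM and Klrb1c at 36.5 CPM, and Eomes and Prf1 had 3 counts or fewer in every library. ILC2 markers, 4 of 6 passing, stood at 284 to 474 CPM in KO and 64.1 to 284 CPM in WT libraries, for the most part from Areg, which was itself higher in every KO library. The sum over macrophage and neutrophil markers, 4 of 7 passing, was 370 CPM in KO replicate 5, 765 CPM in KO replicate 7 and at most 87.9 CPM in the other 6 libraries. Stromal and endothelial markers stood at 13.8 to 413 CPM in KO and 51.3 to 764 CPM in WT libraries, and dendritic cell markers at 144 to 291 CPM in KO and 103 to 174 CPM in WT libraries. Of these, Itgax and Flt3 were at or under 0.217 CPM, Xcr1, Ccl17 and Batf3 were present in all 8 libraries, and Irf8 was higher in every KO library, at 7.56 to 25.4 CPM in KO and 0.0779 to 5.70 CPM in WT libraries. T cell, B and plasma cell and mast cell markers reached at most 124 CPM in any KO and 135 CPM in any WT library, and mast cell markers stood at 65.6 CPM in KO replicate 6 and at most 3.2 CPM elsewhere. Epithelial markers summed to 1273 CPM in WT replicate 2 and to at most 28.3 CPM elsewhere.

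Med31 was the member with the clearest difference between genotypes. It had 335, 579, 505 and 511 CPM in KO replicates 5 to 8, against 1846, 1530.5, 1977 and 950 CPM in WT replicates 1 to 4. The highest KO library lay well under the lowest WT library, WT replicate 4. Means were 483 ± 104 CPM in KO and 1576 ± 457 CPM in WT ILC3s (SD, n = 4 each), and the fitted log2 fold change, KO over WT, was -1.71 with a standard error of 0.273, a fold of 0.306. Over all 8878 genes, its adjusted p in edgeR's quasi-likelihood test was 0.191, which does not pass the threshold of 0.05. The markers of other cell types that differed between the libraries are given above, and their part in the Med31 difference was not tested. In these bulk samples, fewer cells that express a gene and less RNA per cell cannot be told apart.

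No other member separated the groups. Counting members whose 4 KO values all lay below all 4 WT values gave 1 of 33, Med31 itself, where 2.1% of all tested genes did so. Members that lay higher in every KO library numbered 0 of 33, against 2.26% of tested genes. By edgeR's adjusted p under 0.05, 0 of 33 members and 0% of tested genes were called in either direction. At an unadjusted p under 0.05 edgeR had 2 members, Med31 and Med18, both lower, where 2% of tested genes were lower at that level. DESeq2 called 1 member, Med31, lower in KO, against 1.17% of the genes for which it gave an adjusted p (3.26% in either direction), and limma-voom with quality weights called 0. Since Med31 brought the complex to attention, nothing is read from these shares for it.

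**Figure D1:**
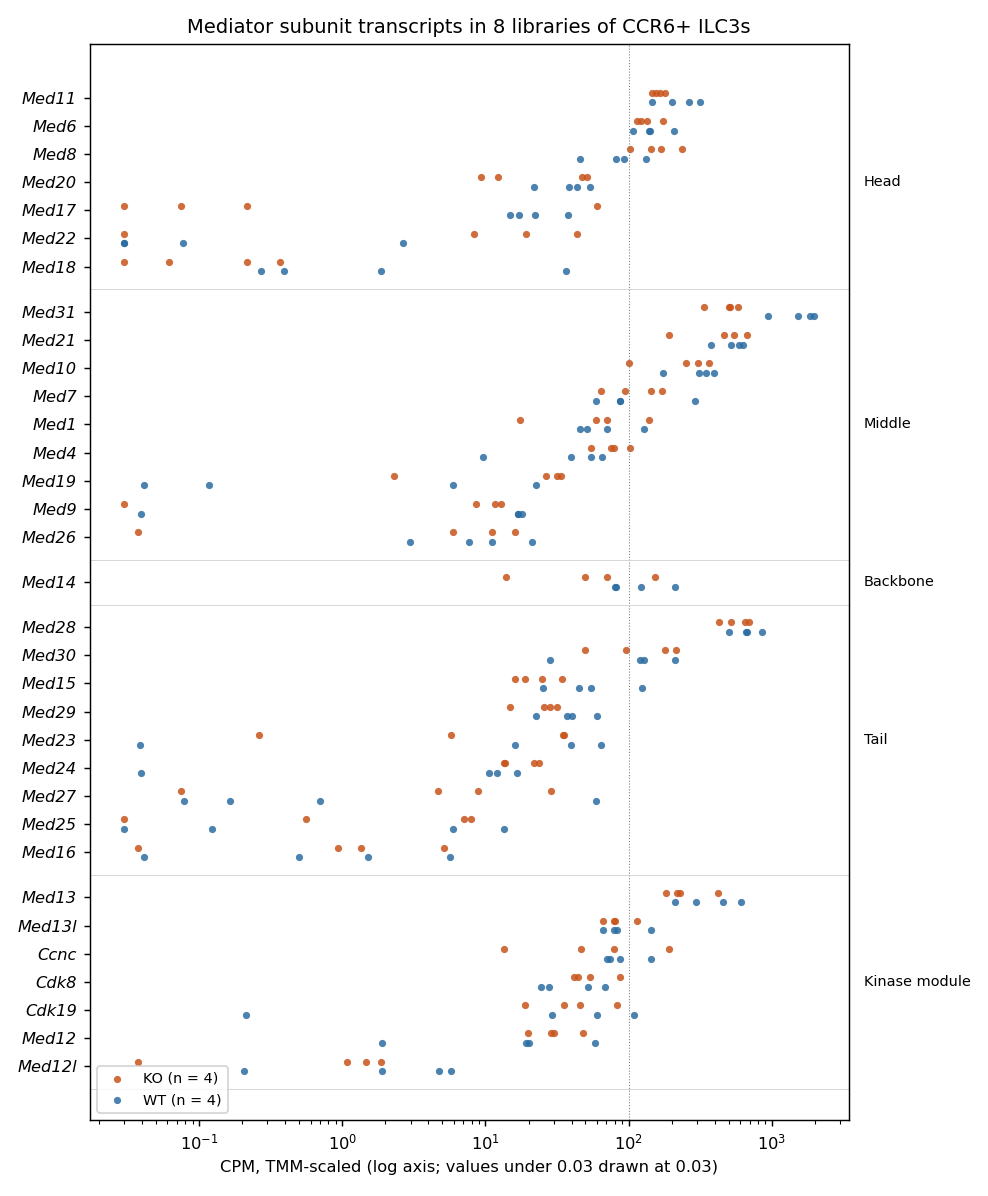
CPM of the 33 Mediator genes (log horizontal axis) in each library, KO points above WT points in every row, grouped by module. Med31 is the row in which the 4 KO points, 335 to 579 CPM, lie to the left of all 4 WT points, 950 to 1977 CPM.

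Med31 was set against the rest of the complex by its fitted change, its share of reads and its rank. These all use the Med31 values by which it was picked, so they describe that difference and add no support to it. The fitted log2 change of the other 32 members had a median of -0.21, and that of Med31 lay 1.49 below this median on the log2 scale. Of the 33 members, 25 had a fitted log2 fold below 0 and 8 above it, where 49.1% of all tested genes were below and 50.9% above, and the median was -0.24 over members and 0.02 over all tested genes. Among tested genes averaging 100 CPM or more the share below 0 was 55.8%, and 8 of the 10 Mediator genes at that level were below 0. Only Med18, at -5.87, had a lower fitted value than Med31, and its standard error of 2.27 was many times larger. Members that share a library share its composition, so these counts over genes are not replicates.

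**Figure D2:**
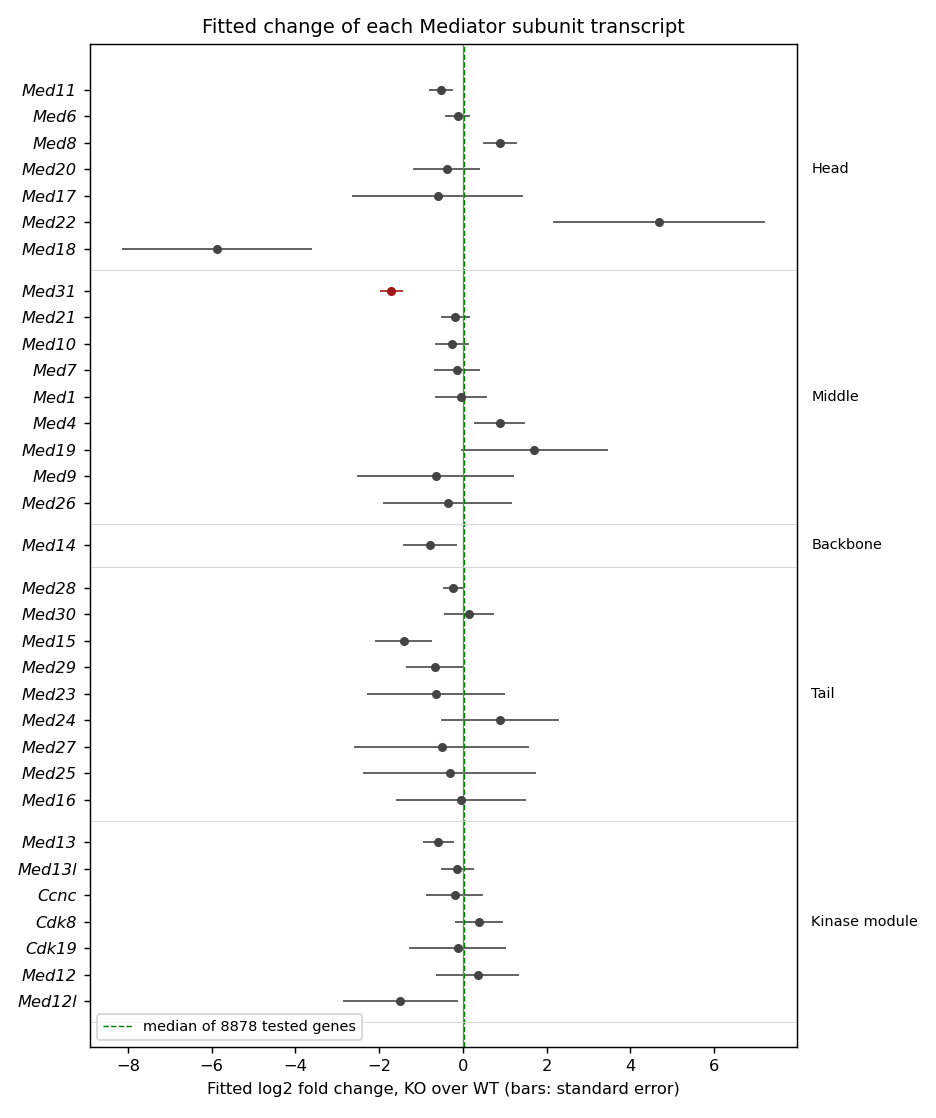
Fitted log2 fold change, KO over WT, of each Mediator gene with its standard error, grouped by module. Med31 (red) is at -1.71 with a standard error of 0.273, while most other members with short bars lie within 1 of the dashed median of all tested genes, 0.02.

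Reads of Med31 made up 9.6%, 18.95%, 13.9% and 13.6% of all reads assigned to the 33 genes in KO replicates 5 to 8, against 35.9%, 30.8%, 34.5% and 22.5% in WT replicates 1 to 4. No KO share reached the lowest WT share, which in part restates the Med31 difference itself. The mean share was 14.0 ± 3.83% in KO and 30.9 ± 6.03% in WT libraries (SD, n = 4 each). The other 32 genes together had 3152, 2478, 3125 and 3245 CPM in the KO libraries, against 3292, 3433, 3761 and 3280 CPM in the WT libraries. With TMM-scaled totals these sums also did not overlap, but KO replicate 8 came close to WT replicates 1 and 4. Without the scaling factors, 0.986 to 1.09 in KO and 0.942 to 1.019 in WT libraries, the groups overlapped in this sum. The gap in the sum over the whole complex, at 3483 ± 304 CPM in KO and 5017 ± 621 CPM in WT libraries (SD, n = 4 each), was for the larger part Med31.

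**Figure D3:**
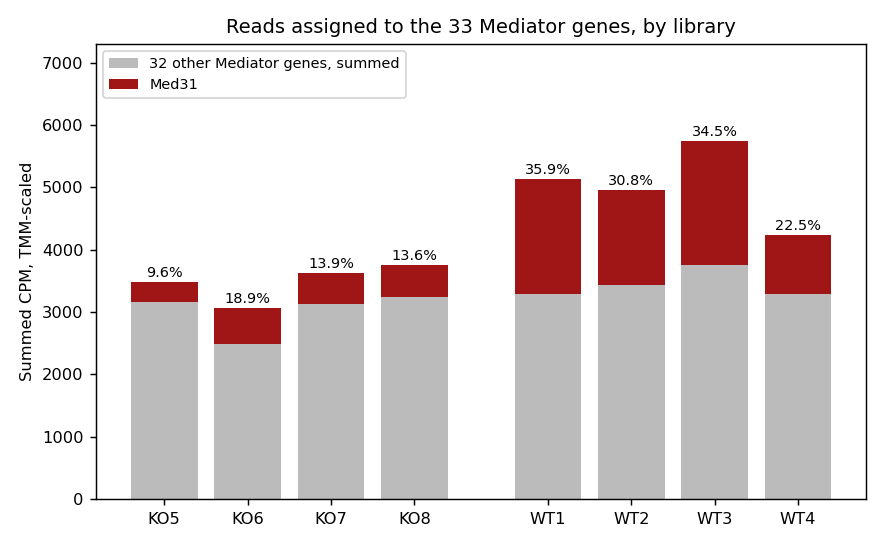
Summed CPM of the 33 Mediator genes in each library, KO libraries on the left, with Med31 in red on top of the other 32 genes in grey and its share printed above each bar. The share is 9.6% to 18.95% in KO and 22.5% to 35.9% in WT libraries.

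Levels of different genes were compared per kilobase of annotated exon. On this scale Med31 ranked second of the 33 genes in KO libraries, with a mean of 416 CPM per kb, and first in WT libraries, with 1357 CPM per kb. Med21, a middle subunit that pairs with MED7 at the hinge of the module, had 426 CPM per kb in KO and 483 CPM per kb in WT. Med31 was the highest member in KO replicate 6 and in all 4 WT libraries, and the second highest in KO replicates 5, 7 and 8. Below these genes came Med10 with 182 CPM per kb in KO and 218 in WT, Med11 with 174 in KO and 249 in WT, and then Med30, Med6 and Med28, at 125 to 134 CPM per kb in KO and 122 to 148 in WT. The lowest were Med12l, Med18 and Med16 in KO and Med22, Med12l and Med16 in WT, all under 1 CPM per kb.

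No other gene of the middle module separated the genotypes. Med7, which binds MED31 directly in the complex, had 63.9, 172, 95.2 and 144 CPM in KO replicates 5 to 8, against 87.3, 58.8, 291 and 87.6 CPM in WT replicates 1 to 4. Its groups overlapped throughout, and WT replicate 3 was far above the other WT libraries. Med21 had 462, 192, 670.5 and 543 CPM in the KO libraries, against 522, 590, 628 and 379 CPM in the WT libraries. KO replicate 6 was the lowest and KO replicate 7 the highest of the 8 libraries, and the groups overlapped. Med10, a middle subunit that contacts MED14, had 364, 100.5, 251 and 304 CPM in the KO libraries, against 173, 346, 309 and 396.5 CPM in the WT libraries. KO replicate 6 was again lowest, with WT replicate 1 next. The fitted log2 changes of Med7, Med21 and Med10 were -0.14, -0.18 and -0.26, with standard errors of 0.542, 0.349 and 0.398 and unadjusted edgeR p values of 0.795, 0.611 and 0.521.

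As a ratio within each library, Med31 stood at 5.24, 3.37, 5.31 and 3.54 times Med7 in KO replicates 5 to 8, against 21.1, 26.03, 6.79 and 10.8 times Med7 in WT replicates 1 to 4. Ratios to Med21 were 0.725, 3.01, 0.754 and 0.941 in the KO libraries, against 3.53, 2.59, 3.15 and 2.50 in the WT libraries. The ratio to Med7 kept the groups apart, and that to Med21 did not, through the low Med21 of KO replicate 6. Both ratios carry the Med31 values by which it was picked, so a gap in them is no separate support. The remaining middle subunits were Med1, the subunit that nuclear receptors bind, and Med4, Med9, Med19 and Med26. Med1 averaged 71.5 ± 50.2 CPM in KO and 73.8 ± 37.4 CPM in WT, and Med4 78.0 ± 19.9 CPM in KO and 42.5 ± 24.3 CPM in WT (SD, n = 4 each). Med9, Med19 and Med26 did not exceed 33.8 CPM in any library.

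**Figure D4:**
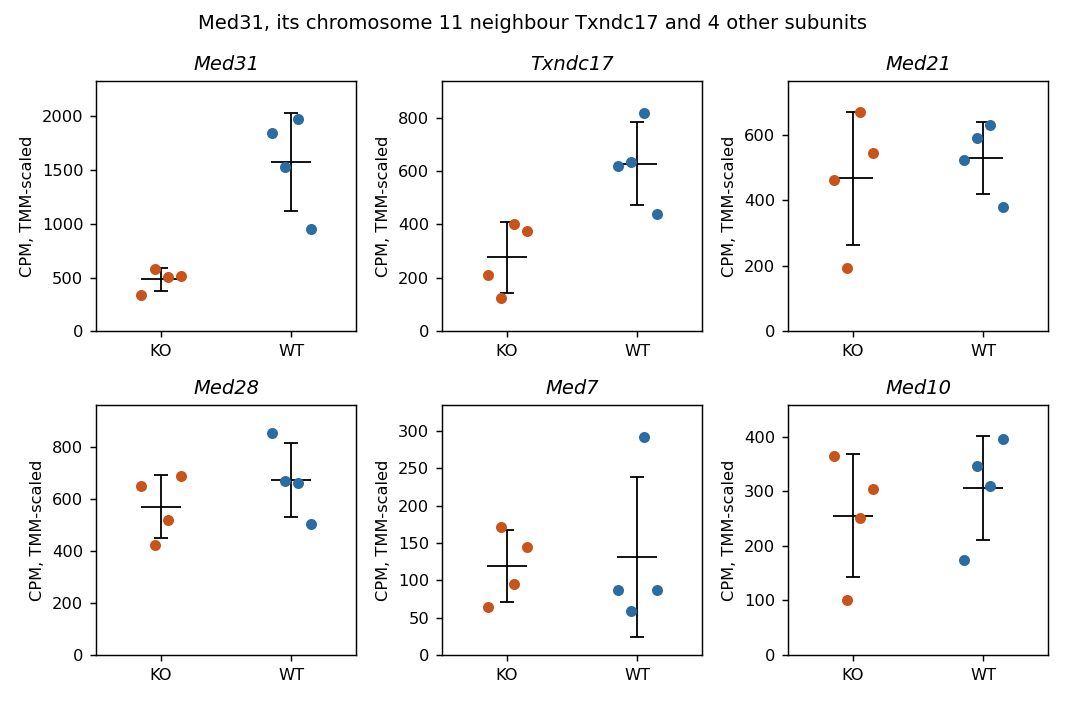
CPM per library of Med31, its chromosome 11 neighbour Txndc17 and 4 other Mediator genes, KO on the left of each panel and WT on the right, with the mean and SD of 4 libraries. Med31 and Txndc17 are the panels in which no KO point reaches a WT point on TMM-scaled CPM. Without the scaling factors this holds for Med31 only.

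The neighbours of Med31 on chromosome 11 were read for the same libraries. Txndc17, which encodes a small thioredoxin-like protein, lies 1236 bases from Med31 on the opposite strand (72207554 to 72210487), and the 2 genes run toward each other. It had 210, 123, 401 and 375.5 CPM in KO replicates 5 to 8, against 620, 636, 817 and 438.5 CPM in WT replicates 1 to 4. On TMM-scaled CPM all KO libraries lay under all WT libraries, by a narrow margin between KO replicate 7 and WT replicate 4. Without the scaling factors KO replicate 7 lay above WT replicate 4 for Txndc17, while the groups of Med31 stayed apart. The means were 277 ± 133 CPM in KO and 628 ± 155 CPM in WT libraries (SD, n = 4 each), and the fitted log2 fold of -1.18 (standard error 0.373) had an adjusted p of 0.808 in edgeR's quasi-likelihood test. The library order differed between the 2 genes: KO replicate 6 was the highest KO library for Med31 and the lowest for Txndc17, and Med31 was 4.72 times Txndc17 there and 1.26 to 2.98 times in the other 7 libraries. The RefSeq span of 4930563E22Rik overlaps the 5′ end of Med31 by 455 bases on the opposite strand, and that gene had 1 count over all 8 libraries. Beyond it, Slc13a5 had 2 counts in all. On the other side of Txndc17, 4933427D14Rik averaged 15.2 ± 10.4 CPM in KO and 23.6 ± 24.7 CPM in WT libraries (SD, n = 4 each), with overlapping groups.

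In the head module, the part nearest the polymerase, 5 of 7 genes had a fitted value below 0 and 0 passed the test. Med11, Med6 and Med8 were the abundant head genes. Med11 averaged 162 ± 14.2 CPM in KO and 232 ± 72.7 CPM in WT, Med6 136 ± 25.6 CPM in KO and 149 ± 41.6 CPM in WT, and Med8 163 ± 55.9 CPM in KO and 88.0 ± 35.2 CPM in WT (SD, n = 4 each). The head genes at lower levels came and went between libraries. Med18, which forms a movable jaw of the head with MED20, had 0.367, 0, 0.062 and 0.217 CPM in KO replicates 5 to 8, against 0.271, 36.5, 0.393 and 1.87 CPM in WT replicates 1 to 4. WT replicate 2 held 891 of the 957 Med18 counts in WT libraries, and without that library the fitted log2 fold was -2.35. That library is also the one with the epithelial markers, and their part in the Med18 value was not tested. Med17, the scaffold of the head, had 60.0, 0.0752, 0 and 0.217 CPM in the KO libraries, against 22.2, 37.7, 14.8 and 17.1 CPM in the WT libraries. KO replicate 5 was above every WT library, and the other 3 KO libraries were at or near 0. Med22, the partner of MED11 in the head, had 0.0283, 19.2, 43.4 and 8.37 CPM in the KO libraries, against 0.0775, 2.66, 0 and 0 CPM in the WT libraries. Med17 and Med22 were singled out after their values were seen, and their unadjusted p in edgeR's fit was 0.772 and 0.093.

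The tail, which receives most activators, had 7 of 9 genes with a fitted value below 0 and 0 that passed. Med28, which joins the tail to the head and was the most abundant tail gene by CPM, had 653, 425, 519 and 689 CPM in KO replicates 5 to 8, against 855, 671, 662 and 506 CPM in WT replicates 1 to 4. The groups overlapped, and the log2 fold was -0.24 (standard error 0.233). Med30 averaged 135 ± 75.9 CPM in KO and 122 ± 75.2 CPM in WT (SD, n = 4 each). Med15, the tail subunit bound by SREBP factors, averaged 23.5 ± 8.01 CPM in KO and 62.5 ± 43.1 CPM in WT, with a log2 fold of -1.41 (standard error 0.68, unadjusted edgeR p 0.0646). Its WT mean was raised by WT replicate 2, at 124 CPM. Group means of Med16, Med24, Med25, Med27 and Med29 ran from 1.87 CPM for Med16 in KO to 39.8 CPM for Med29 in WT. Med23, bound by the MAP kinase target ELK1, had 19.1 ± 18.7 CPM in KO and 29.97 ± 28.0 CPM in WT. Med14, the backbone, averaged 72.0 ± 58.8 CPM in KO and 124 ± 60.7 CPM in WT (SD, n = 4 each), with a log2 fold of -0.78 (standard error 0.647).

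The kinase module had 5 of 7 genes with a fitted value below 0, and 0 passed. Cdk8, the catalytic subunit, had 53.6, 86.9, 41.6 and 44.4 CPM in KO replicates 5 to 8, against 52.2, 27.8, 24.5 and 68.9 CPM in WT replicates 1 to 4. Its paralog Cdk19 had 83.1, 18.8, 45.5 and 35.2 CPM in the KO libraries, against 110, 29.3, 0.214 and 60.5 CPM in the WT libraries. Neither kinase gene separated the groups, and Cdk19 was nearly missing from WT replicate 3. Ccnc, encoding cyclin C, the activating partner of both kinases, had 13.5, 191, 78.6 and 46.3 CPM in the KO libraries, against 74.8, 87.8, 70.3 and 143 CPM in the WT libraries. KO replicates 5 and 6 were the extremes of all 8 libraries.

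Med13, which anchors the kinase module to the core, had 183, 419, 227 and 220 CPM in KO replicates 5 to 8, against 212, 298, 454 and 612 CPM in WT replicates 1 to 4. Of the KO libraries 3 lay near the lowest WT library and KO replicate 6 lay within the WT range. Its paralog Med13l had 78.6, 114, 79.9 and 66.5 CPM in the KO libraries, against 143, 66.1, 79.3 and 83.2 CPM in the WT libraries. Med12, the subunit that activates the kinase, had 29.9, 19.7, 48.2 and 28.9 CPM in the KO libraries, against 1.90, 19.1, 20.1 and 57.9 CPM in the WT libraries. Its WT values ran lower and higher than any KO value. Med12l had 1.86, 0.0376, 1.46 and 1.084 CPM in the KO libraries, against 4.73, 0.205, 5.71 and 1.91 CPM in the WT libraries. Fitted log2 folds in the module ran from -1.49 for Med12l to 0.38 for Cdk8.

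The paralogs of the kinase module allow a comparison that does not use the genotypes. It asks which copy had the higher CPM per kilobase of coding length within each of the 8 libraries. The CPM is that of the whole gene, so reads of untranslated parts could add to it. Med13 was the higher copy in 8 of 8 libraries, with 50.4 ± 23.4 CPM per kb for Med13 and 13.4 ± 3.99 CPM per kb for Med13l (SD over 8 libraries). The mean log2 difference, with 1 CPM per kb added, was 1.76 ± 0.71 (SD), with an exact two-sided paired permutation p of 0.00781 and 0.0234 adjusted over the 3 pairs. Med12 was higher than Med12l in 7 of 8 libraries, WT replicate 1 being the exception, with 4.30 ± 2.70 CPM per kb for Med12 and 0.323 ± 0.311 CPM per kb for Med12l. That log2 difference was 1.83 ± 1.06 (SD), with an exact paired permutation p of 0.0156 and 0.0234 adjusted. Its size depends on the added value: it was 0.75 with 5 CPM per kb added and 3.35 with 0.1 CPM per kb added. Cdk8 and Cdk19 had 35.9 ± 14.8 and 31.8 ± 23.7 CPM per kb, Cdk8 being higher in 5 of 8 libraries. Their log2 difference was 0.69 ± 1.64 (SD), with an exact paired permutation p and an adjusted p of 0.359. Per kilobase of exon instead, since Cdk19 has the longer untranslated part, the log2 difference was 1.23 with an adjusted p of 0.0156, so the call for this pair depends on the length used.

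Reads of such copies can be confused where their sequences agree. Aligned coding sequences were identical at 75.8% of bases for Cdk8 and Cdk19, 68.3% for Med12 and Med12l and 66.2% for Med13 and Med13l. The longest stretch shared without a mismatch was 23, 24 and 20 bases in these pairs. The 3 stretches, from GENCODE M21 transcripts on GRCm38, are printed as the longest exact matches between coding sequences. A read placed with mismatches could match both copies over a longer stretch, and untranslated parts were not compared. In both Cdk8 (chromosome 5) and Cdk19 (chromosome 10) the stretch is bases 562 to 584 of the coding sequence. In Med12 (chromosome X) it is bases 1525 to 1548, and in Med12l (chromosome 3) bases 1531 to 1554. In Med13 (chromosome 11) it is bases 325 to 344, and in Med13l (chromosome 5) bases 334 to 353.
Cdk8 and Cdk19: gcagatttggatccagtggttgt
Med12 and Med12l: tgtgaatgggctgtaagctgcaaa
Med13 and Med13l: aatggcctttcctatgaatg

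Overlap between gene spans is a further limit, since the sources used here do not say whether counting used strand. Med12l holds Gpr171 within its span, and Gpr171 had 188 ± 49.97 CPM in KO and 225 ± 25.6 CPM in WT libraries (SD, n = 4 each), far above Med12l. Med9 overlaps Rasd1, Med19 overlaps Tmx2 and Zdhhc5, and Ccnc overlaps Tstd3. Values of these 4 members are uncertain to that extent. Med21 and Med14 overlap the predicted genes Gm6654 and Gm14634.

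Spread between libraries followed the level of the gene. The 10 members averaging 100 CPM or more had a median coefficient of variation within groups of 32.8%, against 31.2% for all tested genes at that level. For the 12 members at 20 to 100 CPM it was 49.8% against 62.9% for all tested genes, and for the 11 members under 20 CPM 104% against 107.7%. Each of those 11 low members had at least 1 library with 3 counts or fewer. This held for 1 of the 12 members at 20 to 100 CPM, Med23, and for 0 of the 10 at 100 CPM and above. Members with more than 3 counts numbered 31, 26, 31 and 33 in KO replicates 5 to 8, against 29, 30, 32 and 29 in WT replicates 1 to 4, so KO replicate 6 had the fewest subunits. Over all tested genes, 84.4% exceeded 3 counts in KO replicate 6 and 84.1% in WT replicate 1, the lowest shares of the 8 libraries.

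**Figure D5:**
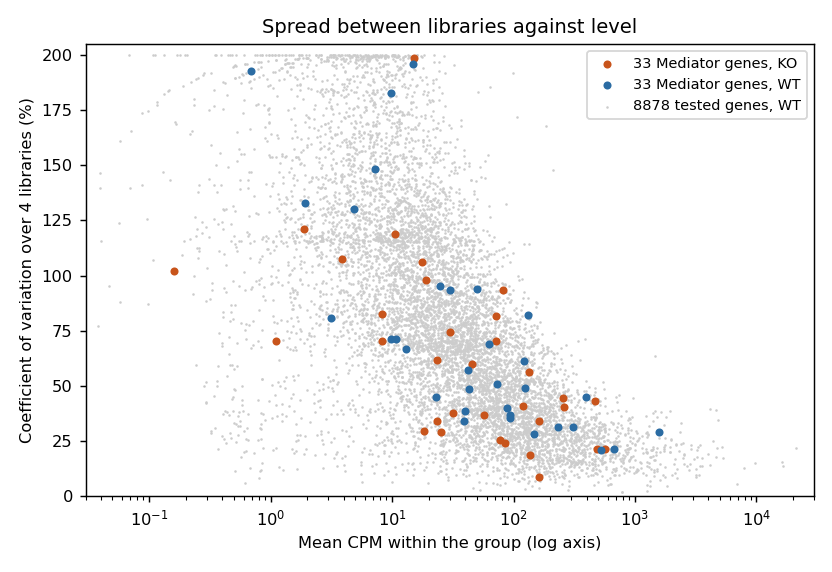
Coefficient of variation over the 4 libraries of a group (percent) against mean CPM in that group (log axis) for the 33 Mediator genes in KO and in WT, over all 8878 tested genes in WT (grey). Median variation of the members falls to 32.8% for members averaging 100 CPM or more, against 104% for those under 20 CPM.

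The partners of Mediator at promoters were read as lists beside it. RNA polymerase II subunits had 6 of 12 genes with a fitted value below 0 and a median log2 fold of 0.00, and general transcription factors other than TFIID had 9 of 16 below 0 with a median of -0.07. TFIID, which recognises the promoter, had 9 of 14 below 0 with a median of -0.28. Pause and elongation factors had 16 of 21 below 0 with a median of -0.27, and cohesin with its loader had 6 of 10 below 0 with a median of -0.06. Of the tested genes of these lists 0 passed edgeR's adjusted test and 1, Aff1, had an unadjusted p under 0.05, where 4.1% of all tested genes did. Groups did not overlap in 3 genes, where 4.36% of all tested genes had no overlap.

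The first of these 3 was Ccnt1, which encodes the cyclin T1 partner of CDK9 in pause release. It had 2.32, 27.6, 23.6 and 29.8 CPM in KO replicates 5 to 8, against 56.0, 92.6, 45.8 and 72.1 CPM in WT replicates 1 to 4, with an unadjusted edgeR p of 0.0594. Stag1, a cohesin subunit, had 75.1 to 101 CPM in KO and 104 to 120 CPM in WT libraries, with a log2 fold of -0.32 (standard error 0.308). Without the TMM scaling factors the groups of Stag1 overlapped. Taf3, a TFIID subunit that reads trimethylated histone H3, had 3.59 to 17.4 CPM in KO and 0 to 3.37 CPM in WT libraries. Aff1, a scaffold of the super elongation complex, had 61.5, 79.3, 106 and 97.2 CPM in the KO libraries, against 244, 169, 100.5 and 217 CPM in the WT libraries. Only WT replicate 3 fell within the KO range, and the log2 fold of -1.09 (standard error 0.355) had an adjusted p of 0.885 in edgeR's test. Mnat1 and Gtf2h4 of TFIIH, Polr2c and Polr2e of the polymerase, Taf1 and Taf6 of TFIID, Supt6 of the elongation factors and Stag2 and Pds5b of cohesin came next by p, at unadjusted edgeR p values of 0.0579 to 0.361 with overlapping groups.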

How the data were processed

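Per the labels' protocols, cDNA of the sorted cells was amplified with a SMARTer kit for very small RNA inputs. Tools named in the submitters' processing notes are CASAVA 1.8.2 and STAR 2.3.0, with the build mm10. The counting tool, its annotation and its treatment of strand and multiply mapped reads are not given in these sources. As deposited, the table has unnormalized whole read counts per Entrez gene ID, and 25275 of 27179 IDs were matched to symbols in RefSeq's GRCm38.p6 table. The 1904 rows without a symbol held 0.303% of counts.

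Groups come from the sample titles. Counts were tested with edgeR 4.0.16 (R 4.3.3): TMM factors, filterByExpr by group, the quasi-likelihood F test of KO against WT on all 8 libraries, and Benjamini-Hochberg adjustment over all 8878 genes, with a threshold of 0.05. CPM values use TMM-scaled library totals, and standard errors come from the F statistic. P-values measure the spread between mice, which with 1 library per mouse cannot be told apart from that between library preparations. The labels name no molecular identifiers, so amplified copies of a molecule may count as separate reads. Paralogs were compared by exact paired permutation. Exon and coding lengths came from GENCODE M21. The edgeR fit was also run on simulated counts, with changes placed only in genes averaging at least 100 CPM. No result here rests on that run, and it does not cover changes in members below that level. Alternatives were other scaling factors and filters, DESeq2 1.42.0, limma-voom (limma 3.58.1), robust dispersions and libraries left out.

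The members and lists were chosen with earlier results of these data known. Values in every library are given for Med31, for members whose groups did not overlap or with an unadjusted p under 0.05, for the 5 with the highest mean CPM, for the kinase module, for Med7, Med10 and Med21, and for Txndc17. The other annotated neighbours of Med31 are given by group mean or by summed counts. From each other list the genes named are those without overlap and up to 2 more with the smallest p. The driver of the Cre transgene and some genes that overlap members are not reported here.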

Additional observations from a re-analysis of the deposited data

Results flagged for a closer look

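In 6 of 70 groups of 4 libraries, covering the members, Txndc17 and Zbtb46, the library at one end stood far from the other 3 by Dixon's gap. For normally distributed values chance would give about 3.5. CPM of the low members, many at or near 0, are not so distributed, so nothing is read from this count. KO replicate 5 had 60.0 CPM of Med17, against 0 to 0.217 CPM in the other KO libraries. WT replicate 2 had 36.5 CPM of Med18, against 0.271 to 1.87 CPM in the other WT libraries, and 2.66 CPM of Med22, against 0 to 0.0775 CPM. WT replicate 3 had 291 CPM of Med7, against 58.8 to 87.6 CPM, and 59.1 CPM of Med27, against 0.0779 to 0.698 CPM. WT replicate 4 had 0.0389 CPM of Med9, against 16.9 to 18.1 CPM. Med31 was in none of these groups.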

How the results depend on the processing

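Over 18 alternatives the Med31 log2 fold kept its sign, from -1.89 to -1.57, with adjusted p values from 0.000514 to 0.835. It passed 0.05 in 3 of them: without a filter on low counts (-1.68, adjusted p 0.0415), among genes averaging at least 100 CPM (-1.64, adjusted p 0.0166, fewer genes tested, and a set earlier work chose with Med31 known) and in DESeq2 (-1.71, adjusted p 0.000514). Leaving out 1 library each gave -1.89 to -1.57 (adjusted p 0.166 to 0.835). Med31 was picked from this same comparison, so its adjusted p values, in any setting, are a description and no test of it. The same 3 settings called 1 member each, Med31, and 2, 4 and 374 genes in all, against 0 genes by edgeR as used here, where leaving out 1 library gave 0 to 2 (2 without KO replicate 6). Zbtb46 passed in DESeq2 alone (-4.30, adjusted p 0.0115, against 0.431 to 0.958 elsewhere). Members lower in every KO library numbered 1 to 4 and members higher 0 to 2 when 1 library was left out, and 4 and 3 without replicates 1 and 6, where fewer libraries must separate. Without replicates 1 and 6 the sign also turned for Cdk19 (0.88), Med21 (0.072) and Med28 (0.026), and limma-voom gave 1.93 for Cdk19. With 1 library left out, the sign depended on the library for Ccnc (-1.03 to 0.16), Cdk19 (-0.60 to 0.60), Med12 (-0.037 to 1.20), Med13l (-0.32 to 0.15), Med21 (-0.41 to 0.065) and Med7 (-0.39 to 0.62); the cause was not tested. The difference between Cdk8 and Cdk19 was 1.23 with exon length, an alternative chosen after seeing the data, as were those for Zbtb46 and Txndc17. The 11 members under 20 CPM were each at 3 counts or fewer in at least 1 library, which limits what can be said of them; the cause was not tested. No paired analysis was possible because the groups share no replicate number.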
